A study of Homo sapiens with 14 samples.

Results

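The MYC, MAX and MXD network is a set of basic helix-loop-helix leucine zipper transcription factors and the proteins that oppose them. The 10 genes followed here were MYC, MYCN, MAX, MXD1, MXD3, MXD4, MXI1, MNT, MGA and MLX, and their probe sets were those annotated with a single symbol of the list. Of the 10 genes, 9 had a probe set of their own, with 33 probe sets in all, out of 19775 genes and 42892 annotated probe sets tested. MXD4 had no probe set of its own. For it, 3 probe sets named both MXD4 and MIR4800, a microRNA gene that lies within MXD4, and their values are given apart from the counts of members.

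The arrays came from 7 established T-cell acute lymphoblastic leukemia (T-ALL) lines, namely TALL-1, P12-ICHIKAWA, Molt-4, Jurkat, HPB-ALL, CCRF-CEM and ALL-SIL. In each line, cells treated for 6 h with AS605240, an inhibitor of phosphoinositide 3-kinase (PI3K), at the IC50 of that line, were set against cells of the same line given vehicle for 6 h. There were 14 HG-U133 Plus 2.0 arrays, 7 with AS605240 and 7 with vehicle, with 1 array for each line and treatment. All were long-term cultures in the same serum-containing medium. The paper reports a single IC50 for each line, lowest in CCRF-CEM and the same for Jurkat and ALL-SIL. Except between Jurkat and ALL-SIL, line and concentration therefore cannot be told apart in the changes given by line. The 7 lines were the replicates, so the spread below is that between lines with the array noise included.

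MYC and its relative MYCN activate genes of ribosome production, metabolism and the cell cycle after pairing with MAX, and the pair binds the E-box CACGTG. MXD1, MXI1, MXD3, MXD4 and MNT pair with the same MAX, bind the same kind of site and bring in corepressors that carry histone deacetylases. MGA also pairs with MAX and belongs to a repressive Polycomb-like complex, while MLX takes the place of MAX for the glucose-sensing factors MondoA and ChREBP. In T-ALL, MYC is known as a main target of activated Notch1 and as a driver of leukemic growth, and its protein is turned over quickly under the control of kinases and ubiquitin ligases.

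Of the 9 genes, 4 were higher with AS605240 at an adjusted p under 0.05, namely MXD1, MXD3, MXI1 and MNT, and 1, MLX, was lower. Over all genes tested, 11.8% were called higher and 7.03% lower in the same limma fit, in which the line was a block and p-values were adjusted by Benjamini-Hochberg. Only MXD3 also passed 1.5-fold, as did 1.07% of all genes on the higher side. MYC, MYCN, MAX and MGA did not pass the test. All 9 genes had a signal over 50 on at least 7 of 14 arrays, as did 16 of the 33 probe sets. The median log2 fold change of the 9 genes was 0.10, against 0.01 over all genes.

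**Figure D1:**
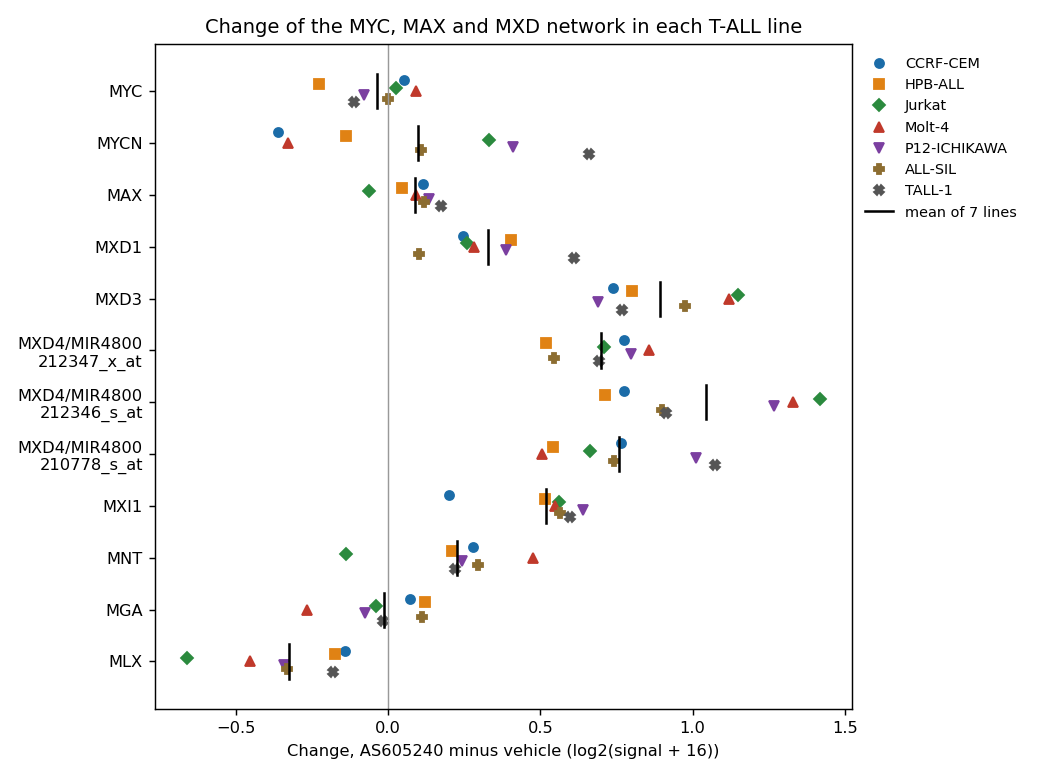
Change in log2(signal + 16), AS605240 minus vehicle, of the brightest probe set of each gene and of the 3 probe sets that name MXD4 and MIR4800, with 1 point per cell line and a black bar at the mean of 7 lines. MXD1, MXD3, MXI1 and the 3 shared probe sets lie above 0 in all 7 lines, MLX lies below 0 in all 7, and MYC lies between -0.23 and 0.09.

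Each gene was read from its brightest probe set, on the log2 scale of signal plus 16, which understates the change of dim genes. A difference in signal between probe sets is not read as a difference in expression. The median signal of the arrays was 19.9 to 25.0. The median log2 level of an array over all probe sets changed by 0.03 ± 0.02 (SD, n = 7 lines), higher in 7 of 7 lines. The 24 poly-A spike-in probe sets, added during sample preparation, changed by 0.22 ± 0.17 (SD, n = 7), also higher in 7 of 7 lines, and the part of this in the results was not tested. The vehicle arrays of P12-ICHIKAWA and TALL-1 correlated across genes with r = 0.994, and the remaining 20 pairs with r between 0.908 and 0.953, so these 2 lines may not be independent. With the 2 counted as 1 line, MNT lost its call (adjusted p = 0.0624) and MXD1, MXD3, MXI1 and MLX kept theirs. Of 19 measured T-cell markers, 17 had a signal over 50 on at least 7 arrays, as did 1 of 7 B-cell markers, 1 of 8 myeloid markers and 2 of 9 markers of epithelium and fibroblasts. The summed signal of the B-cell markers ranged between 77.0 and 454.9 with AS605240 and between 62.0 and 392.7 with vehicle, and that of the myeloid markers between 204.2 and 293.0 with AS605240 and between 194.6 and 313.3 with vehicle. That of the epithelial and fibroblast markers ranged between 393.0 and 747.8 with AS605240 and between 312.5 and 864.6 with vehicle.

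MYC, on chromosome 8, had a signal over 50 on all 14 arrays, and its level with AS605240 was close to that with vehicle. Its lowest, median and highest levels were 10.25, 10.88 and 11.51 with AS605240, against 10.33, 10.93 and 11.46 with vehicle, and both ends of the range were set by the same lines, P12-ICHIKAWA and CCRF-CEM. The change was 0.05 in CCRF-CEM, -0.23 in HPB-ALL, 0.02 in Jurkat, 0.09 in Molt-4, -0.08 in P12-ICHIKAWA, -0.00 in ALL-SIL and -0.11 in TALL-1. The signs were mixed, with 3 lines higher and 4 lower, and the 2 groups overlapped over almost the whole range. MYC averaged 10.85 ± 0.44 with AS605240 and 10.88 ± 0.40 with vehicle (SD, n = 7 each), a log2 fold change of -0.04 with a 95% interval of -0.16 to 0.09 and an adjusted p of 0.753. The lines differed more than the treatments did. MYC was highest in CCRF-CEM (11.48, mean of both arrays), then Jurkat (11.15), HPB-ALL (10.99), ALL-SIL (10.93) and Molt-4 (10.84), and lowest in TALL-1 (10.37) and P12-ICHIKAWA (10.29), a range of 2.28-fold. The gap below CCRF-CEM and the gap below Molt-4 exceeded the least difference of 0.24 that the spread of the fit allows between 2 lines with 2 arrays each, and the other neighbours in this order did not differ beyond that.

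MYCN, the relative of MYC that is amplified in neuroblastoma, split the lines into a set with clear signal and a set near background. With AS605240 its signal was 1741 in CCRF-CEM, 529 in TALL-1, 351 in P12-ICHIKAWA and 307 in Jurkat, and between 5.85 and 15.3 in HPB-ALL, Molt-4 and ALL-SIL. With vehicle it was 2242 in CCRF-CEM, 329 in TALL-1, 261 in P12-ICHIKAWA and 241 in Jurkat, and between 11.5 and 15.7 in the other 3. CCRF-CEM thus had the highest level of MYC and of MYCN. Among the 4 lines with clear signal, the change of MYCN was -0.36 in CCRF-CEM but 0.66 in TALL-1, 0.41 in P12-ICHIKAWA and 0.33 in Jurkat. The changes in the other 3, between -0.33 and 0.11, lie near background and give no direction. With all 7 lines in the fit, the log2 fold change was 0.10 (95% interval -0.14 to 0.33, adjusted p = 0.641). The other 9 MYCN probe sets were dim, with a signal over 50 on 3 arrays for 1 of them and on none for the other 8, and none was called.

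**Figure D2:**
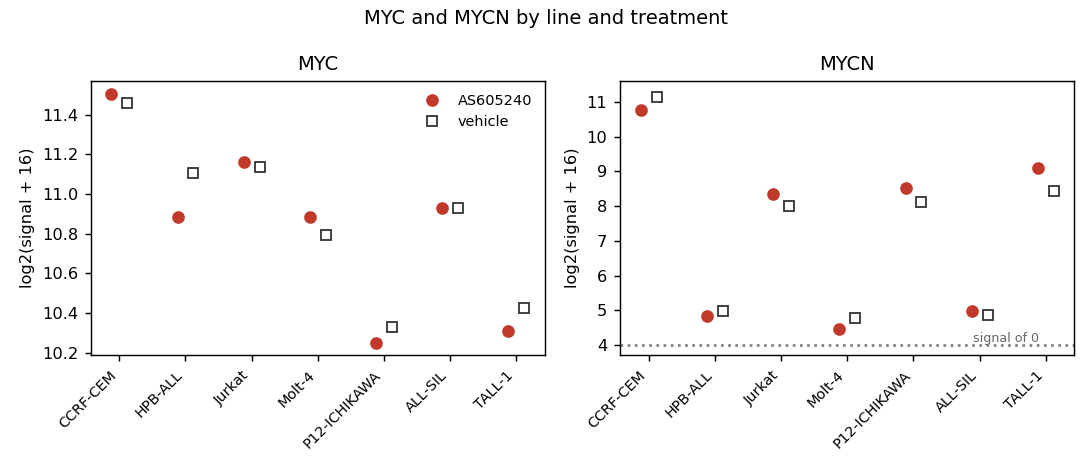
Levels of MYC and MYCN in log2(signal + 16) in each cell line, with AS605240 (filled circles) left of vehicle (open squares); the axes do not start at 0, and the dotted line marks a signal of 0. MYC stays between 10.25 and 11.51 on all 14 arrays, whereas MYCN lies near the dotted line in HPB-ALL, Molt-4 and ALL-SIL and reaches 11.14 in CCRF-CEM.

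MAX (chr14:65006101-65102695, GRCh38.p14), the shared partner, had lowest, median and highest levels of 9.74, 10.29 and 10.45 with AS605240, against 9.63, 10.19 and 10.44 with vehicle. The groups overlapped, and CCRF-CEM was the low line in both. The changes were small, between -0.06 in Jurkat and 0.17 in TALL-1, and 6 of 7 lines were higher, for a log2 fold change of 0.09 (SE 0.06, adjusted p = 0.329). The exact two-sided sign-flip test over the 7 lines gave p = 0.0469 for this value alone, where 0.0156 is the smallest p that 7 lines allow. Of the other 4 MAX probe sets, 3 had log2 fold changes between 0.02 and 0.04. The remaining one, 214108_at, whose signal passed 50 on 3 of 14 arrays, was lower in 7 of 7 lines (-0.41, SE 0.08, adjusted p = 0.00257 over all probe sets, and -0.22 with an offset of 64), so the MAX probe sets disagreed. The mean of all MAX probe sets had a log2 fold change of -0.05, with no call.

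MXD1, MXD3 and MXI1, antagonists that compete for MAX, were called higher with AS605240, and MXD3 and MXI1 had the largest log2 changes of the 9 genes. MXD3 rose 1.85-fold, MXI1 1.43-fold and MXD1 1.25-fold, each in 7 of 7 lines, and the 3 probe sets that name MXD4 and MIR4800 were 1.62-fold, 2.06-fold and 1.69-fold higher, also in 7 of 7 lines. Over all probe sets tested, 10.4% were called higher, 6.03% lower and 0.926% higher by more than 1.5-fold. Of the 33 probe sets of single members, 4 were called higher and 3 lower, and 1 passed 1.5-fold on the higher side. Sequences around the starts of MXD4, MNT, MLX and MXI1 are shown because they hold 1 of the 2 motifs searched, of which the E-box is the site that the network itself binds. MNT, MLX and MXI1 were called with AS605240, whereas for MXD4 only the probe sets shared with MIR4800 were. In the RefSeq promoter windows (GRCh38.p14, 250 bases before to 50 bases after each start, printed 5′ to 3′ on the strand of the gene), CACGTG was searched as 1 motif, since its reverse complement is the same, and the forkhead motif GTAAACA was searched with its reverse complement TGTTTAC. The forkhead motif was chosen because FOXO factors, which PI3K signaling keeps out of the nucleus, bind it. CACGTG was in 7.26% and the forkhead motif in 3.42% of all 35116 windows. Among the 14 windows of the 9 members in the RefSeq table, CACGTG was in 1 window each of MXD4, MNT and MLX, and the forkhead motif in 2 of the 3 windows of MXI1. These 9 members include MXD4 but not MYC, which had no window and was not searched. The capitals below mark the matches.
MXD4 (chr4:2262060-2262359, minus strand, E-box at -238): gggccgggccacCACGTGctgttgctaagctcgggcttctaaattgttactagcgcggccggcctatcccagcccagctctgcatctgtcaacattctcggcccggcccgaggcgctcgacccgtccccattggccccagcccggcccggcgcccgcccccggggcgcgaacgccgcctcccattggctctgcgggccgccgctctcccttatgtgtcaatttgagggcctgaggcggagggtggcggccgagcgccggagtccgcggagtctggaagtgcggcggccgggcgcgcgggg
MNT (chr17:2401011-2401310, minus strand, E-box at -193): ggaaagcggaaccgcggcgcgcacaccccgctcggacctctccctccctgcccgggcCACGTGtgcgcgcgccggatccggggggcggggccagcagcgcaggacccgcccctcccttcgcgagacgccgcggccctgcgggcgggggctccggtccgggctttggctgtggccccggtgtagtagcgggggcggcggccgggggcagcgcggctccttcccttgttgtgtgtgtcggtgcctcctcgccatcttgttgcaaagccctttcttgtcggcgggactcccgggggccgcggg
MLX (chr17:42566850-42567149, plus strand, E-box at -50): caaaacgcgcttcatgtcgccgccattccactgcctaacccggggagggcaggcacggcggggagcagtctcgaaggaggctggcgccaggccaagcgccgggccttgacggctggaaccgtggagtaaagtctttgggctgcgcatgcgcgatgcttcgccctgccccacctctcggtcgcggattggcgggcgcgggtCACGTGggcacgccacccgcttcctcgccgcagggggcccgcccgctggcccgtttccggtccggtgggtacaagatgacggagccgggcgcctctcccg
MXI1 (chr10:110209981-110210280, plus strand, forkhead motif at -151): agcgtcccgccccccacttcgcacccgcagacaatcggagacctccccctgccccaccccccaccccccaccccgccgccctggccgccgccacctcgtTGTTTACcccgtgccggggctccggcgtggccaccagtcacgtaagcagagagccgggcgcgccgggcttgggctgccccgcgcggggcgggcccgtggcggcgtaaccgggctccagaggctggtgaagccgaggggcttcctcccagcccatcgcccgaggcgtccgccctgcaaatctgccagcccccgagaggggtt
MXI1 (chr10:110225746-110226045, plus strand, forkhead motif at -2, across the start): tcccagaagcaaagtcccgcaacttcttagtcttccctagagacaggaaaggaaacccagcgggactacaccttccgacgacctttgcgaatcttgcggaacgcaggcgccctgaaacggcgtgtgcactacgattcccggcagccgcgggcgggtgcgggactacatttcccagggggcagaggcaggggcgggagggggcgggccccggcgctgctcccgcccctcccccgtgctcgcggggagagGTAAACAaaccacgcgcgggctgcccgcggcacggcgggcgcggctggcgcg
A match describes the letters of the window and is not a binding site measured here. No match says only that the letters are not in that window, as for both motifs in the window of MXD3, the gene with the largest change of the 9. The E-box stood in the windows of genes that were higher (MNT) and lower (MLX) with AS605240.

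MXD3 (chr5:177305499-177312752), a repressor of the MXD family that is expressed in dividing cells, had lowest, median and highest levels of 7.07, 7.67 and 8.84 with AS605240, against 6.33, 6.74 and 7.72 with vehicle. The 2 groups overlapped between lines, but every line was higher with AS605240 than with vehicle. The change was 0.74 in CCRF-CEM, 0.80 in HPB-ALL, 1.15 in Jurkat, 1.12 in Molt-4, 0.69 in P12-ICHIKAWA, 0.97 in ALL-SIL and 0.77 in TALL-1. Jurkat and Molt-4 had the largest changes and P12-ICHIKAWA the smallest. MXD3 averaged 7.81 ± 0.55 with AS605240 and 6.92 ± 0.51 with vehicle (SD, n = 7 each), a log2 fold change of 0.89 (SE 0.07, adjusted p = 7.68e-06; exact sign-flip p = 0.0156, the smallest possible). By line it was highest in Molt-4 (8.28, mean of both arrays) and lowest in CCRF-CEM (6.70). Between these, P12-ICHIKAWA (7.71) and TALL-1 (7.55) did not differ beyond the spread, and neither did ALL-SIL (7.18) and HPB-ALL (7.14), or HPB-ALL and Jurkat (7.01). The gaps below Molt-4, TALL-1 and Jurkat exceeded the least difference of 0.28.

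The probe sets shared by MXD4 (chr4:2247432-2262109) and MIR4800 (chr4:2250077-2250156) cannot be told apart by gene. The brightest, 212347_x_at, had lowest, median and highest levels of 6.75, 7.44 and 8.44 with AS605240, against 5.95, 6.77 and 7.58 with vehicle, and was higher by 0.52 in HPB-ALL to 0.86 in Molt-4. Its log2 fold change was 0.70 (SE 0.06, adjusted p = 1.28e-05 over all probe sets). Probe set 212346_s_at had a log2 fold change of 1.04 (SE 0.09, adjusted p = 1.05e-05), with the largest changes in Jurkat (1.42), Molt-4 (1.33) and P12-ICHIKAWA (1.27). Probe set 210778_s_at, over 50 on 2 arrays, had 0.76 (SE 0.07, adjusted p = 2.99e-05), and 0.37 with an offset of 64. The direction was the same for all 3, but the order of the lines was not: Molt-4 was highest on 2 of them and ALL-SIL on 210778_s_at.

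MXI1 (chr10:110207605-110287365), a repressor first described as a MAX interactor, had lowest, median and highest levels of 7.97, 8.42 and 10.02 with AS605240, against 7.37, 7.85 and 9.51 with vehicle. HPB-ALL stood above the other lines in both groups, and the groups overlapped. The change was 0.20 in CCRF-CEM and lay between 0.52 and 0.64 in the other 6 lines. MXI1 averaged 8.62 ± 0.68 with AS605240 and 8.10 ± 0.73 with vehicle (SD, n = 7 each), a log2 fold change of 0.52 (SE 0.06, adjusted p = 0.000102). Its line means spanned 4.28-fold, with HPB-ALL (9.76) highest, CCRF-CEM (8.70) next and TALL-1 (7.67) lowest.

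MXD1 (chr2:69915109-69942945), an antagonist known from the differentiation of blood cells, had a signal over 50 on 7 of 14 arrays. Its lowest, median and highest levels were 5.84, 6.20 and 7.39 with AS605240, against 5.23, 5.92 and 6.98 with vehicle. The change lay between 0.10 in ALL-SIL and 0.61 in TALL-1, so all lines moved the same way although the groups overlapped. The log2 fold change was 0.33 (SE 0.07, adjusted p = 0.00306), and it was 0.19 both with an offset of 64 and from the mean of its probe sets. The other 2 MXD1 probe sets had a signal over 50 on at most 2 arrays and were not called (0.24, adjusted p = 0.0849, and -0.01, adjusted p = 0.955).

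MNT (chr17:2384073-2401060), the antagonist that is present in both resting and dividing cells, had lowest, median and highest levels of 6.72, 7.66 and 7.87 with AS605240, against 6.42, 7.44 and 7.59 with vehicle. ALL-SIL was low in both groups, and Jurkat was the line that did not follow, with a change of -0.14 against 0.21 to 0.48 in the other 6. The log2 fold change was 0.23 (SE 0.07, adjusted p = 0.0350, 6 of 7 lines higher). The call was lost when any line but Jurkat was left out (adjusted p between 0.0601 and 0.102) and in 11 of 14 paired alternatives, and the second probe set, 236749_at, had a log2 fold change of 0.04 (adjusted p = 0.698).

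MGA (chr15:41621224-41769940), the large protein that ties MAX to a Polycomb-like repressor complex, had lowest, median and highest levels of 7.39, 7.57 and 7.85 with AS605240, against 7.32, 7.63 and 7.73 with vehicle. Its change ran between -0.27 in Molt-4 and 0.12 in HPB-ALL, for a log2 fold change of -0.01 (95% interval -0.15 to 0.12, adjusted p = 0.917). None of the other 3 MGA probe sets was called.

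MLX (chr17:42567100-42573203), the MAX-like partner of MondoA and of some MXD proteins, was the member that fell. Its lowest, median and highest levels were 8.72, 9.01 and 9.29 with AS605240, against 8.86, 9.46 and 9.60 with vehicle. The change was -0.14 in CCRF-CEM, -0.18 in HPB-ALL, -0.66 in Jurkat, -0.45 in Molt-4, -0.34 in P12-ICHIKAWA, -0.33 in ALL-SIL and -0.18 in TALL-1. Every line was lower with AS605240, Jurkat most, and the groups overlapped. MLX averaged 9.02 ± 0.18 with AS605240 and 9.34 ± 0.26 with vehicle (SD, n = 7 each), a log2 fold change of -0.33 (SE 0.07, adjusted p = 0.00442), or 1.25-fold lower, and the mean of all its probe sets gave -0.20. Probe set 217910_x_at was also lower (-0.39, adjusted p = 0.00200), and 217909_s_at missed the threshold (-0.21, adjusted p = 0.0503). The other 3 MLX probe sets, with a signal over 50 on at most 6 arrays, were not called.

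**Figure D3:**
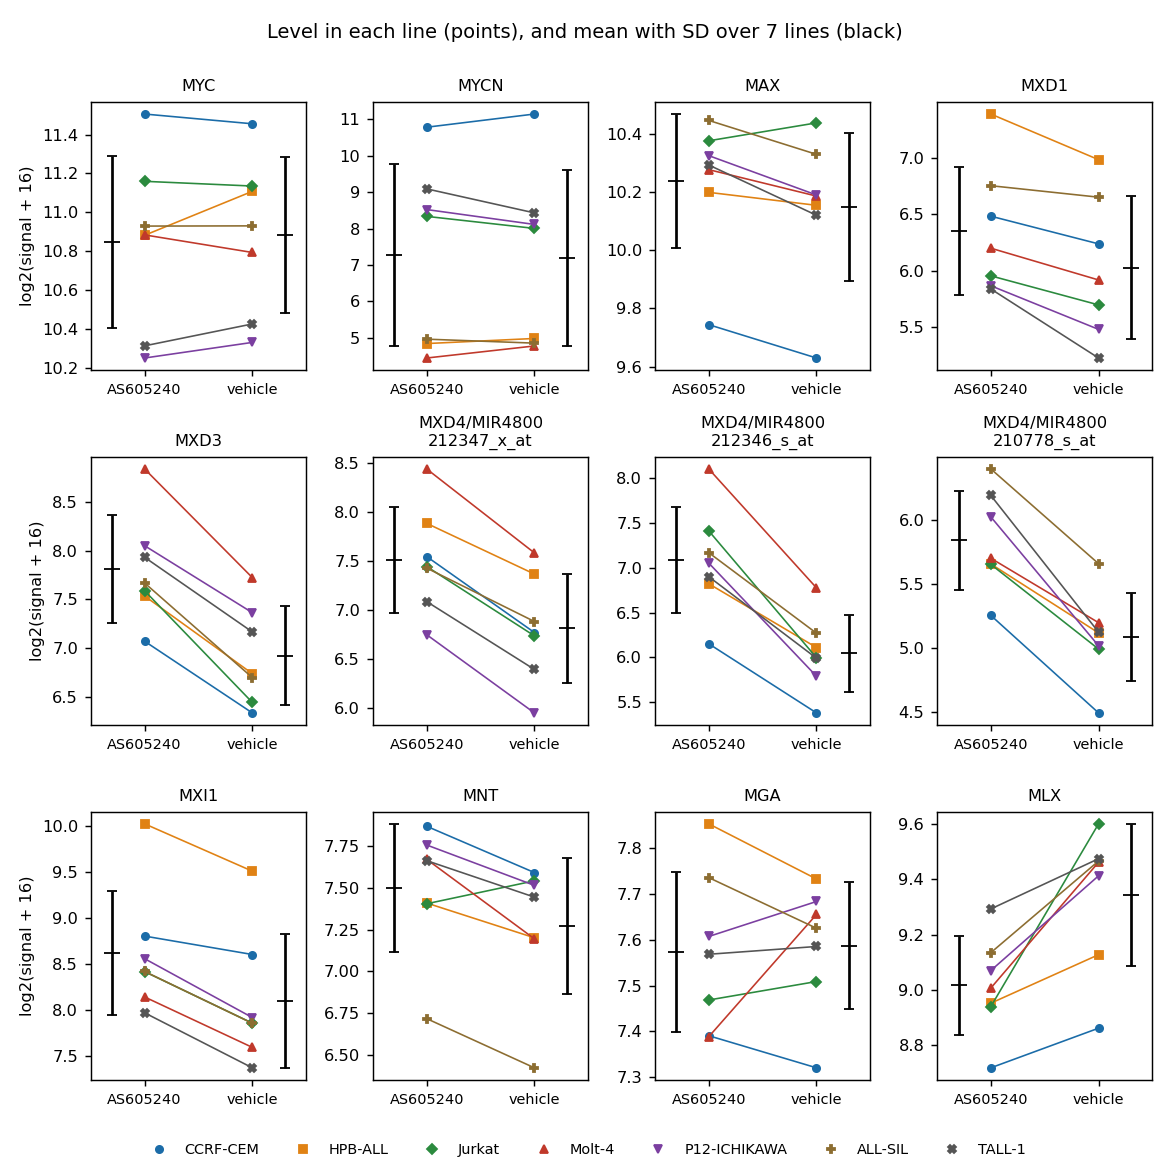
Level in log2(signal + 16) of each gene's brightest probe set and of the 3 shared probe sets, AS605240 left and vehicle right, with a line joining the 2 arrays of each cell line and the mean with SD over 7 lines in black; each panel has its own axis, which does not start at 0. The lines for MXD1, MXD3, MXI1 and the shared probe sets all end lower at vehicle, those for MLX all end higher at vehicle, and HPB-ALL stands apart for MXI1.

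**Figure D4:**
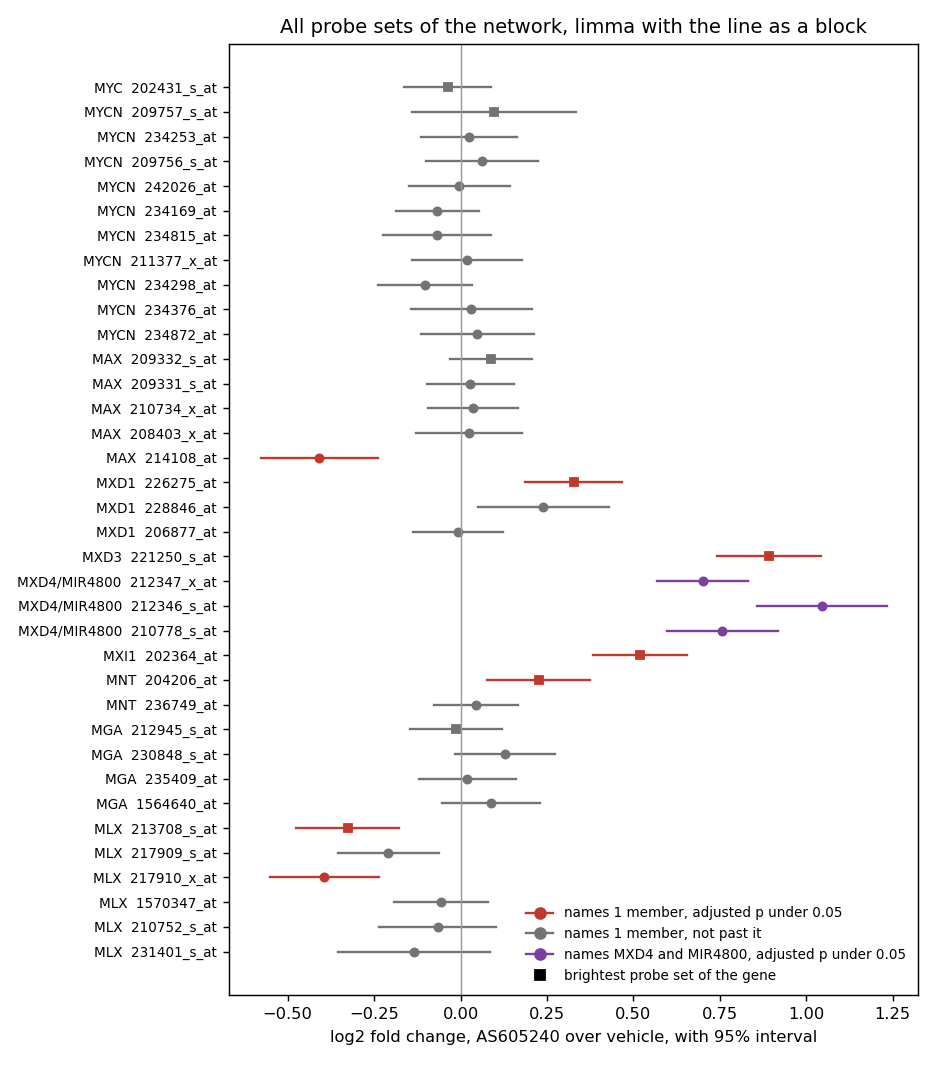
Log2 fold change, AS605240 over vehicle, with its 95% interval from limma, for the 33 probe sets of single members and the 3 that name MXD4 and MIR4800; squares mark the brightest probe set of each gene. Of the 33 probe sets, 4 were called higher and 3 lower, and the 3 shared ones lie between 0.70 and 1.04.

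Levels differed between lines for 8 of the 9 genes at an adjusted p under 0.05 (limma F test of the line term), where 66.9% of all genes did so. A line had 1 array for each treatment and no replicate culture. Neither this test nor the least difference between lines measures the spread between cultures of a line. MGA was the exception (adjusted p = 0.0593), with line means within 1.36-fold. The smallest range among the other 8 was that of MLX (1.51-fold), and in it no neighbouring lines differed beyond the spread. CCRF-CEM was lowest by rank for MAX, MXD3, MGA and MLX and highest for MYC, MYCN and MNT, although its gap to the next line was within the spread for MGA, MLX and MNT. The count was 6 without CCRF-CEM.

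The genes whose levels followed MYC most closely over the 14 arrays were FAIM (r = 0.962), LPCAT1 (0.958) and CCDC22 (0.955), of 6436 genes that passed a filter on level and spread. None of these was called with AS605240 (adjusted p between 0.252 and 0.482). For MXD3 they were MKRN1 (r = 0.961), UCP2 (0.910) and NUB1 (0.898), which were themselves higher with AS605240, by 0.37, 0.61 and 0.53 on the log2 scale. These correlations describe arrays that share 7 lines and 1 treatment and are given with no test.

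Among the other members of the family, MLXIP, which encodes MondoA, the partner of MLX, was higher (0.34, SE 0.06, adjusted p = 0.00192, 7 of 7 lines), and the mean of its probe sets gave 0.20. Its lowest, median and highest levels were 6.77, 7.82 and 8.22 with AS605240, against 6.61, 7.51 and 7.95 with vehicle. MLX and MLXIP thus changed in opposite directions in every line. MYCL and MLXIPL, the gene of ChREBP, were not called (0.07 and 0.01). Both were dim, with a signal over 50 on 5 of 14 arrays for MYCL and on 0 for MLXIPL. Of the MondoA targets, TXNIP, an inhibitor of glucose uptake, changed by -0.67 in Molt-4 and -0.28 in CCRF-CEM, and by 0.26 in HPB-ALL, 0.54 in Jurkat, 0.77 in TALL-1, 0.97 in P12-ICHIKAWA and 1.04 in ALL-SIL. It was higher in 5 of 7 lines, for a log2 fold change of 0.38 (adjusted p = 0.160). Without Molt-4, the line with the most negative change, this was 0.55 (adjusted p = 0.0193). TXNIP was not called in the other 13 of 14 paired alternatives, and its lowest value with a line left out was 0.26. ARRDC4, with a signal over 50 on 7 of 14 arrays, had a log2 fold change of -0.06 (adjusted p = 0.852). This mean covers changes of both signs, as for TXNIP. ARRDC4 changed by -1.16 in Molt-4 and -0.69 in CCRF-CEM, and was higher in 5 of 7 lines, by 0.09 in P12-ICHIKAWA to 0.46 in ALL-SIL.

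The corepressors that MXD proteins and MNT recruit had a call in each direction. Of 15 measured genes, 1 was higher and 1 lower, where 11.8% of all genes were called higher and 7.03% lower, and the median log2 fold change was -0.00. SAP30, a subunit of the SIN3 complex, was lower (-0.44, adjusted p = 0.00461, 7 of 7 lines), with the largest changes in P12-ICHIKAWA (-0.93) and TALL-1 (-0.83), and the mean of its probe sets gave -0.27. ARID4B, another SIN3 subunit, was higher (0.28, adjusted p = 0.00501), but the mean of its probe sets gave 0.04 (adjusted p = 0.721). SAP18, the third by p, did not pass (-0.16, adjusted p = 0.0582). Of 12 measured partners of MGA, 1 was called lower and none higher, beside 11.8% higher and 7.03% lower over all genes. At an unadjusted p under 0.05 in limma, 2 were higher and 3 lower, and the median log2 fold change was -0.06. The gene called lower was L3MBTL2, a chromatin reader of the complex (-0.57, adjusted p = 4.84e-05, 7 of 7 lines). YAF2 (0.18, adjusted p = 0.0581) and HDAC1 (-0.17, adjusted p = 0.0972) did not pass. Without HPB-ALL, 2 corepressors and 2 MGA partners were lower, and without Molt-4, 1 MGA partner was higher. HDAC1 and HDAC2 are in both lists. HDAC1 was called lower without HPB-ALL (-0.23, adjusted p = 0.0254 in limma) and so counts in each list.

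Of 17 measured coactivators of MYC, 4 were higher and 1 lower, beside 11.8% and 7.03% of all genes, with a median of -0.05. RUVBL1, an ATPase of the TIP60 and INO80 complexes, fell (-0.39, adjusted p = 0.000370), whereas CDK9, the kinase that releases paused RNA polymerase II (0.45, adjusted p = 0.00102), and the acetyltransferase genes CREBBP (0.30, adjusted p = 0.0106), KAT5 (0.33, adjusted p = 0.0110) and EP300 (0.23, adjusted p = 0.0477) were higher. From the mean of all probe sets CDK9 had 0.24 and CREBBP was not called (0.18, adjusted p = 0.0557), and 2 coactivators were lower without HPB-ALL. Of 22 measured genes that act on MYC protein stability, 5 were higher and 2 lower, against 11.8% higher and 7.03% lower over all genes, with a median of -0.01. PIM1 and PIM2, serine/threonine kinases that phosphorylate MYC, rose most. PIM1 was higher in 7 of 7 lines, by 0.33 in Jurkat to 1.27 in Molt-4 (0.82, SE 0.10, adjusted p = 0.000145). PIM2 was higher in 6 of 7 lines, by up to 1.73 in HPB-ALL, with -0.07 in Jurkat (0.80, SE 0.18, adjusted p = 0.00632). CIP2A, an inhibitor of the phosphatase PP2A (0.26, adjusted p = 0.00928), USP28 and AURKA were also higher, and USP36 and PPP2CA, the catalytic subunit of PP2A, were lower. This higher count was 3 when CCRF-CEM, HPB-ALL, Jurkat, ALL-SIL or TALL-1 was left out, and the lower count was 1 without CCRF-CEM, Jurkat, Molt-4, P12-ICHIKAWA or TALL-1.

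Among genes known to be activated by MYC, 23 of 39 measured were lower with AS605240 and none was higher (1 higher at an unadjusted p under 0.05 in limma), with a median log2 fold change of -0.24, against 0.01 over all genes and 7.03% of all genes called lower. In all, 35 of the 39 lay below 0. This list and that of the MYC-repressed genes were written with earlier results of these data known, so their counts are not independent support. ODC1, the first enzyme of polyamine synthesis, had lowest, median and highest levels of 10.08, 11.15 and 11.64 with AS605240, against 10.80, 11.83 and 12.20 with vehicle, and fell in every line by 0.42 to 0.72 (-0.58, SE 0.06, adjusted p = 3.27e-05). RRS1, a ribosome assembly factor, fell by 0.96 on average (SE 0.11, adjusted p = 6.73e-05), most in ALL-SIL (-1.50) and least in CCRF-CEM (-0.29). NOP16, a nucleolar protein, had -0.65 (SE 0.08, adjusted p = 9.46e-05), again least in CCRF-CEM (-0.19), and the mean of its probe sets gave -0.30. The members that were not called included NPM1 (0.03), FBL (-0.04) and CAD (-0.09). MYC mRNA itself had -0.04, and arrays do not measure its protein.

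Among genes known to be repressed by MYC, 6 of 19 measured were higher and none was lower (none either at an unadjusted p under 0.05 in limma), with a median of 0.13, against 11.8% of all genes called higher. Only 9 of the 19 had a signal over 50 on at least 7 arrays. CDKN1B, which encodes the cell cycle inhibitor p27, was higher in 7 of 7 lines by 0.22 to 0.52 (0.40, SE 0.06, adjusted p = 0.000370). GADD45A, a stress response gene (0.43, SE 0.08, adjusted p = 0.00133), and NDRG1 (0.70, SE 0.15, adjusted p = 0.00393) were each higher in 6 of 7 lines, with -0.02 in Molt-4 for GADD45A and -0.06 in P12-ICHIKAWA for NDRG1. GADD45B, BTG1 and GAS1 were the other 3. CDKN1A, which encodes p21, had -0.13 (adjusted p = 0.520).

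**Figure D5:**
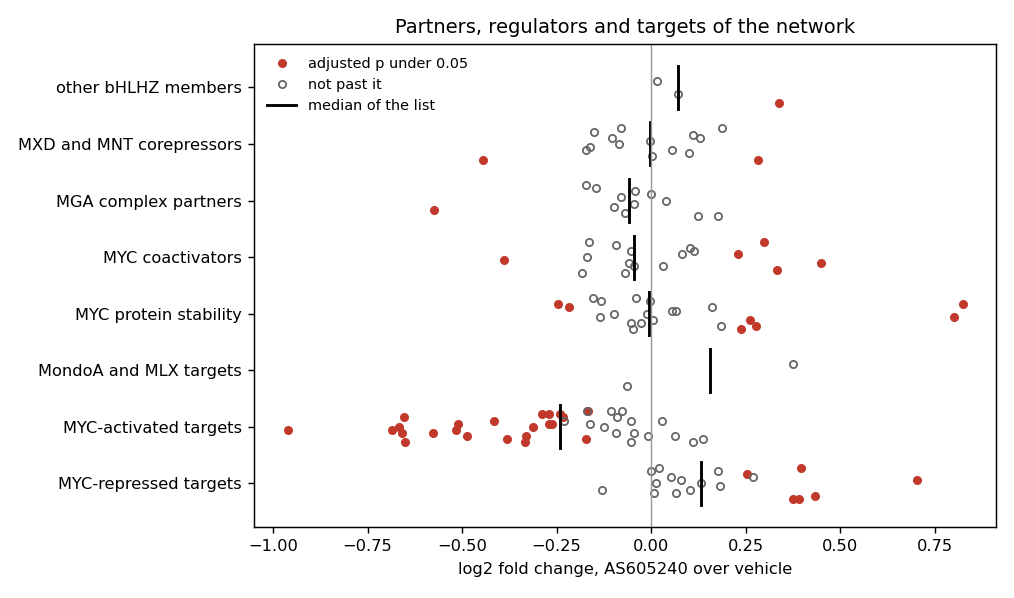
Log2 fold change, AS605240 over vehicle, of each measured gene in 8 lists of partners, regulators and targets of the network; filled points passed an adjusted p of 0.05 over all genes, open points did not, and black bars are list medians. Of the MYC-activated genes, 23 of 39 were lower, and of the MYC-repressed genes, 6 of 19 were higher, while the lists of partners and regulators have medians near 0. The lists were chosen with earlier results of these data known.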

How the data were processed

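Expression in 7 T-ALL cell lines was measured with 14 HG-U133 Plus 2.0 arrays. The values that the authors deposited are linear intensities per probe set, summarized with iterPLIER; the submitters' processing notes name PLIER and Affymetrix Expression Console 1.3.1.187, and how arrays were normalized ahead of it is not given in the sources read here. An offset of 16 was added and log2 taken, as in the study's methods. Probe sets carry the names of the platform annotation: 41091 named 1 gene, 1801 several and 11721 none here, and 62 controls were left out. Gene positions and promoters came from RefSeq tables (GRCh38.p14). Each gene was represented by its brightest probe set of its own.

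AS605240 was compared with vehicle by limma 3.58.1 in R 4.3.3 with the cell line as a block, because the 2 arrays of a pair came from the same line, with Benjamini-Hochberg adjustment over all genes or all probe sets and a threshold of 0.05. Lines were compared by the F test of the line term, in which the least difference between neighbouring lines carries no correction for their number. Single values had an exact two-sided sign-flip test over 128 sign patterns. The text names all members, in each list the 3 genes lowest in p, and the 3 genes most correlated with MYC and MXD3 (signal over 50 on at least 7 arrays, SD of at least 0.3); KAT5, EP300, USP28, AURKA, USP36, PPP2CA, GADD45B, BTG1, GAS1, NPM1, FBL, CAD, CDKN1A and CDCA7 were named after their values were seen. The members and the lists were chosen with earlier results of these data known. Alternatives were an offset of 4 or of 64, centring on the median, quantile normalization, a filter on dim probe sets (signal over 50 on at least 7 arrays), the mean of all probe sets of a gene, P12-ICHIKAWA and TALL-1 as 1 line, no block, and each line left out. The number of arrays limits the precision.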

Additional observations from a re-analysis of the deposited data

Results flagged for a closer look

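Among 36 sets of 7 values tested (the levels with AS605240, the levels with vehicle and the changes of the probe sets shown by line), 6 had a line far from the others by Dixon's test, where chance flags about 1 in 20 groups. The sets are not independent, because both levels come from the same lines and the change is their difference. The count of 6 therefore does not measure an excess over chance. MAX was low in CCRF-CEM, at 9.74 with AS605240 (the next line was at 10.20) and at 9.63 with vehicle (the next at 10.12). MXI1 was high in HPB-ALL with AS605240, at 10.02 against 8.80 in the next line, and its change was small in CCRF-CEM, at 0.20 against 0.52 in the next line. MNT was low in ALL-SIL, at 6.72 with AS605240 (the next line was at 7.40) and at 6.42 with vehicle (the next at 7.19).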

How the results depend on the processing

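MXD1, MXD3, MXI1 and MLX kept their direction and their call in all 14 alternatives that paired the arrays of a line, with log2 fold changes of 0.19 to 0.41, 0.69 to 0.97, 0.45 to 0.57 and -0.36 to -0.20, as did the 3 probe sets shared by MXD4 and MIR4800 in those that applied to them. MYC was not called in any, with -0.07 to -0.00. MYC, MXD3 and MXI1 each had 1 probe set of their own. For these genes the mean of all probe sets repeats the main log2 fold change, and no second probe set could be compared. MNT was called in 3 of the 14. The count of changed member genes was 4 to 5 and that of probe sets 6 to 8. With 1 line left out in turn they were 4 to 5 and 6 to 7, the MYC-activated genes called lower were 19 to 23, the MYC-repressed genes called higher 5 to 7, and the member genes that differed between lines 6 to 9. Without the replicate block that pairs the arrays of a line, limma called 0 member genes (2 at an unadjusted p under 0.05), 0 member probe sets (4 unadjusted), 0 MYC-activated genes lower (8 unadjusted in either direction) and 0 MYC-repressed genes higher (0 unadjusted); this fit places the differences between lines in the error. From the mean of all probe sets, 1 MYC-activated gene, CDCA7, was called higher, and SAP18 turned to 0.21 (adjusted p = 0.0193). The cause was not tested. Members with a signal near background, as MYCN in HPB-ALL, Molt-4 and ALL-SIL, have little resolution below the offset.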
